A study of Homo sapiens with 32 samples.

Results

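The genes described here are 9 surface and endosomal receptors by which monocytes and macrophages recognise microbes, antibody-coated particles and modified lipoproteins, measured in a panel of 32 cell lines from human acute myeloid leukaemia (AML). They were chosen by symbol: CD14, FCGR2A, CD36, CD163, CLEC7A, LILRB4, TLR2, TLR4 and TLR8, and each was read from the probe set of that symbol with the highest mean level over the 32 lines. Of the 9 named genes, 8 had a probe set, among 19775 genes on the array, and the level of LILRB4 was not analysed here. The filter on low values was passed by 7 of these 8, among 15455 genes that passed it. CD163 did not pass, so it has levels but no test. FCGR2A also had a probe set shared with its near-identical neighbour FCGR2C, which was not the one used.

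Total RNA from each line was hybridised to 1 Affymetrix array, with no treatment of the cells. The study's question was how expression relates to sensitivity to inhibitors of the PIM kinases; the sensitivity values were not used here. According to the growth conditions, 25 lines grew in RPMI 1640 or IMDM with no cytokine named, and 4 with an added cytokine. The latter were F-36P, which received IL-3 (5 ng/ml) in RPMI 1640, and OCI-AML2, OCI-AML3 and OCI-AML5, which received SCF or GM-CSF in alpha-MEM. The medium of MV4-11, MOLM-16 and MOLM-13 was not stated. The labels do not relate lines to each other. From general knowledge, PLB-985 was taken as a subline of HL-60 and KG-1A as a subline of KG-1, and each pair was averaged for every test, which left 30 units. No line was measured more than once, so every p-value rests on the spread between lines, and the order of lines with close levels cannot be tested.

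CD14 is the membrane protein that takes up bacterial lipopolysaccharide and passes it to the TLR4 complex, while TLR2 at the cell surface senses bacterial lipopeptides and TLR8 in the endosome senses single-stranded RNA. CLEC7A (Dectin-1) is a lectin for fungal beta-glucans that signals through SYK, and FCGR2A (CD32a) is an activating receptor for IgG. CD36 takes up oxidised lipoproteins and fatty acids and is also carried by platelets and erythroid precursors, and CD163 is the macrophage scavenger receptor for haemoglobin bound to haptoglobin.

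The promoters of CD14, TLR2, TLR4 and TLR8 are shown because these 4 genes rose with the monocyte markers in the comparisons that follow. Each sequence is the 250 bases before the start site in RefSeq, build GRCh38.p14, written along the gene's strand. Capitals mark matches on either strand to any of the following motifs. The core bound by the myeloid factor PU.1 was searched as GAGGAA. The motif of the C/EBP factors was searched as TTGCNNAA. That of the erythroid and megakaryocytic GATA factors was searched as AGATAA. The motif of AP-1 was searched as TGANTCA, where N stands for any base. No marked match overlaps another in these sequences. CD14 lies on the minus strand at chr5:140633176-140633425. TLR2 is on the plus strand at chr4:153684030-153684279, TLR4 on the plus strand at chr9:117704153-117704402 and TLR8 on the plus strand at chrX:12906370-12906619.
CD14: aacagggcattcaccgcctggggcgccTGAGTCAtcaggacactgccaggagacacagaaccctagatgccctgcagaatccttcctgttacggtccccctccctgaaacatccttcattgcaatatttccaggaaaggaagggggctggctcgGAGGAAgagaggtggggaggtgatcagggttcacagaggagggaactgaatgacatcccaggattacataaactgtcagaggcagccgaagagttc
TLR2: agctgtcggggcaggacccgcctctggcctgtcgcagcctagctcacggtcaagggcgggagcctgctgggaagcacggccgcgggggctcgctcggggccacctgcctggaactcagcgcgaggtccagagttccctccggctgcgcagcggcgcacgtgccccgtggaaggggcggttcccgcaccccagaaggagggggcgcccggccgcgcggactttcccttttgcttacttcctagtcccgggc
TLR4: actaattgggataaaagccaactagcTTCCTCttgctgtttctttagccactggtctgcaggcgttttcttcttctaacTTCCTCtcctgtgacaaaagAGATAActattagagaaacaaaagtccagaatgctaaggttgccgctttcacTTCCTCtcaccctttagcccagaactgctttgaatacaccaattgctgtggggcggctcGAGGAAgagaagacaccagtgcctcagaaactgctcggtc
TLR8: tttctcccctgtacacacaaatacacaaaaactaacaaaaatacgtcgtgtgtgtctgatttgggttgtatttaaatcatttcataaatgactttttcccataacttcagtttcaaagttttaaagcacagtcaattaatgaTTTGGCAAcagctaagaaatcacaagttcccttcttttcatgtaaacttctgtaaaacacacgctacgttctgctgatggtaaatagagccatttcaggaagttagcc
The TLR4 window held 4 matches to the PU.1 core and 1 to GATA, between positions -224 and -35 from the start. The CD14 window held 1 match each to the PU.1 core and to AP-1. The TLR8 window had 1 C/EBP match, and the TLR2 window had no match to any of the motifs. Over the 35116 promoter windows of this length in the table, 23.6% held the PU.1 core, 9.05% the C/EBP motif, 9.17% the motif of the GATA factors and 6.57% that of AP-1. Of the 9 named receptors, 8 had promoter entries. These 8 include LILRB4, which has no level here, and leave out CLEC7A, which had no entry. The entries were 13 in all because CD36 has 6 start sites. The PU.1 core was in 8 of the 13 windows, that of LILRB4 among them. An NF-kB motif, searched as GGG and TTTCC with any 2 bases between them, was in 0 of the 13 windows and in 1.73% of all windows. These matches describe letters only and say nothing about binding.

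All levels below are log2(signal + 16), and a difference of 1 is a doubling for genes well above that constant. Fold values on this scale understate the change of dim genes. A level of 6.73, the median of all probe sets on all arrays, was used as a reference line, and lying above it is not a test of detection. Probe sets differ in their response, so levels are compared between lines for the same gene and not between genes. Each array is a bulk measurement, in which a gene expressed by some cells of a line and a lower level in every cell cannot be told apart. As a yardstick, the median SD of the tested genes over the 30 units was 0.80.

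Arrays differed in ways that touch these genes. The median signal was 198.4 on 1 and 243.3 on the other of the arrays for NOMO-1 and GF-D8, against 68.2 to 115.4 on the other 30. The GAPDH 3'/5' ratio, a measure of RNA integrity, lay between 2.42 and 7.08 on 8 arrays (HL-60, NB-4, GDM-1, ML-2, GF-D8, NOMO-1, MOLM-13 and THP-1) and between 0.871 and 1.24 on the other 24.

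**Figure D1:**
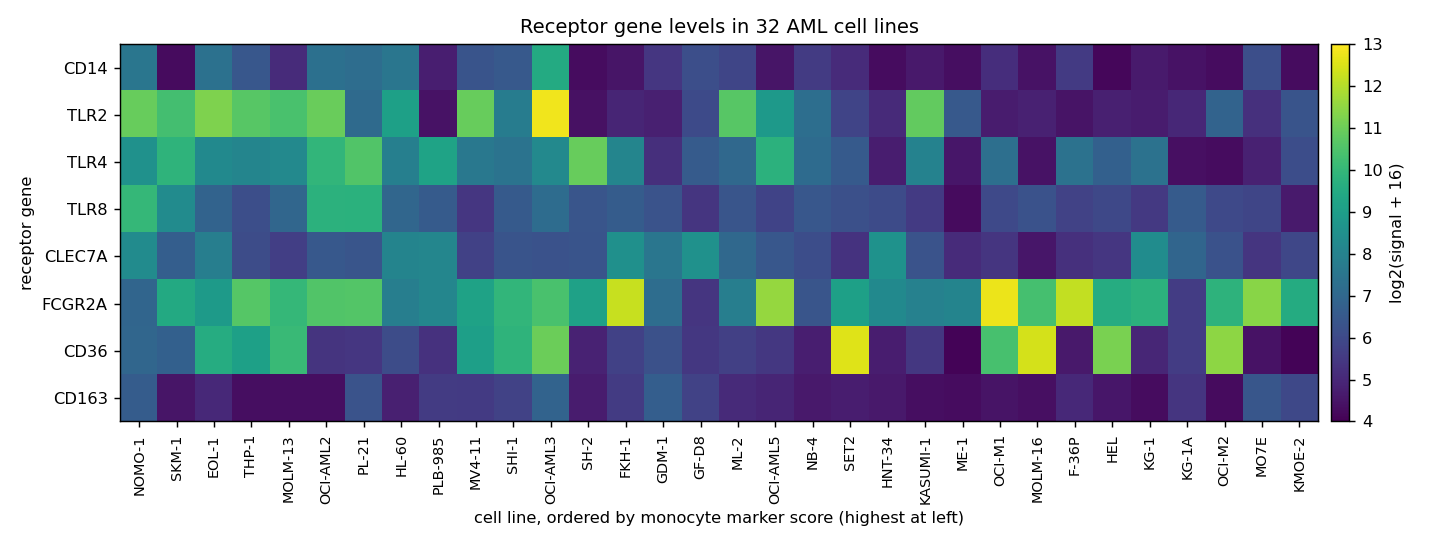
Colour gives the log2(signal + 16) level of 8 receptor genes (vertical axis) in 32 lines (horizontal axis), ordered from the highest to the lowest monocyte marker score, with sublines given the score of their average. Colours are to be read along a row. TLR2 and TLR4 are mostly brighter in the left part, but their brightest cells, OCI-AML3 and SH-2, are not at the left end. CD36 is bright in some lines of the left and of the right part and dim at the right end. FCGR2A is bright in most lines.

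TLR2 and CD36 had the widest ranges of the 8 receptors. TLR2 ranged from 4.40 in SH-2 over a median of 6.68 to 12.81 in OCI-AML3, a 339.6-fold range. Its SD of 2.68 over the units exceeded that of 99.1% of tested genes. In 10 lines TLR2 stood above 10: OCI-AML3, EOL-1 (11.25), OCI-AML2 (10.93), MV4-11 (10.90), NOMO-1 (10.90), KASUMI-1 (10.82), THP-1 (10.67), ML-2 (10.65), MOLM-13 (10.42) and SKM-1 (10.32). HL-60 (9.11) and OCI-AML5 (8.85) followed, and 16 of the 32 lines lay above 6.73. The median of TLR2 was 9.76 on the 8 arrays of high GAPDH ratio and 6.10 on the other 24, and the part of RNA quality in this difference was not tested beyond the refits given with each result.

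TLR4, the lipopolysaccharide receptor, ranged from 4.30 in OCI-M2 over a median of 7.41 to 10.91 in SH-2, a 97.5-fold range, and 22 lines lay above 6.73. SH-2 was followed by PL-21 (10.55), OCI-AML2 (9.92), SKM-1 (9.85), OCI-AML5 (9.79) and PLB-985 (9.23). At the low end, GDM-1 (5.20), MO7E (4.83), HNT-34 (4.72), ME-1 (4.55), MOLM-16 (4.45), KG-1A (4.36) and OCI-M2 were separated from the next line, KMOE-2 (6.13), by a gap of 0.93. SH-2 thus had the highest TLR4 and the lowest TLR2 of the 32 lines. The other 3 TLR4 probe sets also peaked in SH-2 and correlated with the one used at r between 0.84 and 0.95 over the 32 lines.

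TLR8 was high in few lines. It ranged from 4.25 in ME-1 over a median of 6.29 to 10.01 in NOMO-1, with OCI-AML2 (9.77) and PL-21 (9.76) just below it. A gap of 1.42 separated these 3 lines from SKM-1 (8.34), and OCI-AML3 came next at 7.20. In all, 8 lines lay above 6.73. OCI-AML2, PL-21 and SKM-1 were high in both TLR4 and TLR8. Over the 30 units, the levels of these receptors correlated at r = 0.59 (rho 0.60), the highest r among the 28 pairs of receptors, with the arrays' quality and scaling shared by every pair. TLR2 and TLR4 correlated at r = 0.45 (rho 0.45).

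CD14 was low in most lines. It ranged from 4.17 in HEL over a median of 5.14 to 9.49 in OCI-AML3, and 6 lines lay above 6.73. The next lines after OCI-AML3 were HL-60 (7.54), NOMO-1 (7.52), EOL-1 (7.35), OCI-AML2 (7.32) and PL-21 (7.20), at least 1.95 below it. OCI-AML3 therefore held the highest level of CD14 and of TLR2. THP-1, a widely used monocytic leukaemia line, had a CD14 level of 6.44 and MV4-11 one of 6.34. SKM-1 had a TLR4 level of 9.85 and a TLR8 level of 8.34 with a CD14 level of 4.26, next to the lowest of the 32 lines. CD14 correlated over the units with TLR2 (r = 0.58, rho 0.56), CD163 (r = 0.57, rho 0.47) and TLR8 (r = 0.52, rho 0.41).

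CLEC7A had the narrowest spread of the tested receptors, with an SD of 1.14. It ranged from 4.56 in MOLM-16 over a median of 6.33 to 8.58 in HNT-34. GF-D8 (8.54), FKH-1 (8.53), KG-1 (8.38), NOMO-1 (8.34), PLB-985 (8.13) and HL-60 (8.07) followed closely. The arrays of GF-D8 and NOMO-1 were those of high median signal. Over the 30 units CLEC7A correlated with the array median at r = 0.50 and with the log2 GAPDH ratio at r = 0.34. How far the arrays set the order of CLEC7A was not tested. Of its high lines, HNT-34, GF-D8, FKH-1 and KG-1 had TLR2 levels of 5.07, 6.03, 4.94 and 4.70, below the reference line. Its 5 other probe sets correlated with the one used at r between 0.32 and 0.81, so the order of lines depends on the probe set.

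FCGR2A stood above 6.73 in 29 of the 32 lines. It ranged from 5.38 in GF-D8 over a median of 9.51 to 12.75 in OCI-M1, a 165-fold range. FKH-1 (12.23), F-36P (12.19), OCI-AML5 (11.58) and MO7E (11.41) came next, ahead of THP-1 (10.64). The 3 lines below the reference line were NB-4 (6.38), KG-1A (5.58) and GF-D8, of which NB-4 and GF-D8 were arrays of high GAPDH ratio. The probe set shared with FCGR2C correlated with the one used at r = 0.34 over the 32 lines. The remaining probe set correlated at r = -0.09 and was highest in GF-D8 (7.40). Both had lower means than the one used, so the order of lines rests on 1 probe set. FCGR2A correlated with the log2 GAPDH ratio at r = -0.59 over the 30 units. Its median was 7.53 on the 8 arrays of high ratio and 9.67 on the other 24. How far RNA quality set its order was not tested. The gene whose pattern was most like it over the units was FCGR2C (r = 0.88), a paralogue so similar in sequence that the probe sets may not separate them, so the value is uncertain for either gene alone.

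CD36 split the lines into a high and a low set. Its range, from 4.07 in KMOE-2 over a median of 5.72 to 12.57 in SET2, was 363-fold, and its SD of 2.76 exceeded that of 99.2% of tested genes. The widest gap in the order, 2.13, lay between MV4-11 (9.09) and NOMO-1 (6.96). Above it stood SET2, MOLM-16 (12.41), OCI-M2 (11.47), HEL (11.20), OCI-AML3 (10.96), OCI-M1 (10.39), MOLM-13 (10.09), SHI-1 (9.85), EOL-1 (9.56), THP-1 (9.12) and MV4-11, 11 lines in all. Of its 4 other probe sets, the 2 with the highest means correlated with the one used at r = 0.95 each and also peaked in SET2. The remaining ones correlated at r = 0.84, with the peak in SET2, and at r = 0.54, with the peak in GF-D8 (6.90). CD163, in contrast, ranged from 4.25 in OCI-M2 over a median of 4.86 to 6.87 in OCI-AML3, and OCI-AML3 was the 1 line above 6.73. Another CD163 probe set also peaked in OCI-AML3 (6.89) and correlated with the one used at r = 0.66. A further one peaked in GF-D8 (7.55), had 2 lines above 6.73 and correlated at r = 0.31.

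Counted by line, EOL-1, NOMO-1 and OCI-AML3 had 7 of the 8 receptors above 6.73 and HL-60 had 6. MOLM-13, OCI-AML2, PL-21 and SKM-1 had 5. At the other end, GF-D8 and KG-1A had CLEC7A as their 1 receptor above the line, and KMOE-2, ME-1 and MO7E had FCGR2A. The array of NOMO-1 had a high median signal, and against its own array median NOMO-1 had 4 receptors above the median in place of 7, since CD14, FCGR2A and CD36 lay below it. EOL-1 and OCI-AML3 kept 7 and HL-60 kept 6 by that measure.

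The pairs taken as sublines differed widely for some of these receptors. TLR2 was 9.11 in HL-60 and 4.44 in PLB-985, a 25.4-fold difference, and 0.233% of tested genes differed more between these arrays. CD14 was 7.54 in HL-60 and 4.75 in PLB-985, while TLR4 went the other way, 7.87 against 9.23. CLEC7A hardly differed, at 8.07 and 8.13. FCGR2A was 9.78 in KG-1 and 5.58 in KG-1A, an 18.3-fold difference that 1.16% of tested genes exceeded, and TLR4 was 7.39 and 4.36. The median absolute difference of the tested genes was 0.58 for HL-60 and PLB-985 and 0.47 for KG-1 and KG-1A. These are differences between 2 arrays each, with no replicate and no test. The GAPDH ratio was 7.08 for HL-60 and 0.933 for PLB-985, and its part was not tested, whereas it was 0.922 for KG-1 and 0.963 for KG-1A.

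The receptors were next related to a monocyte marker score, the mean centred level of 14 genes such as LYZ, S100A8, CSF1R and CTSS, none of them one of the receptors. It was highest in NOMO-1 (2.93), SKM-1 (2.11), EOL-1 (1.90), THP-1 (1.46) and MOLM-13 (1.44) and lowest in KMOE-2 (-1.79). The 3 Toll-like receptors and CD14 rose with it: 4 of the 7 tested receptors passed, all with a positive slope. For all tested genes, the share called was 7.11%, with 4.42% called higher and 2.69% lower. The receptors' median slope was 0.56 and that of all tested genes 0.02. All tests of this kind were fitted with limma across all tested genes, two-sided, with Benjamini-Hochberg adjustment and a threshold of 0.05.

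TLR8 rose by 0.74 ± 0.139 (SE) per unit of score (limma adjusted p = 0.00122) and TLR4 by 0.96 ± 0.190 (limma adjusted p = 0.0019). For TLR2 the slope was 1.32 ± 0.287 (limma adjusted p = 0.0044) and for CD14 it was 0.56 ± 0.155 (limma adjusted p = 0.024). In the 10 units of highest score TLR4 lay between 7.43 and 10.55, and in the 10 of lowest score between 4.30 and 8.004, so the ranges overlapped narrowly. TLR8 lay between 5.42 and 10.01 in the former and between 4.25 and 6.28 in the latter. TLR2 lay between 6.77 and 11.25 against 4.47 and 10.82, the last value being KASUMI-1, which had a score of -1.08. The value of 6.77 is the average of HL-60 (9.11) and PLB-985 (4.44), so a line of this high-score set lay below the reference line. CLEC7A (0.36 ± 0.149, limma adjusted p = 0.137), CD36 (0.15 ± 0.379, limma adjusted p = 0.841) and FCGR2A (-0.15 ± 0.245, limma adjusted p = 0.746) did not pass. For FCGR2A the medians of the highest and lowest 10 units were 9.69 and 9.70, so the label of monocyte receptor did not match its order in these lines.

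The calls for TLR4 and TLR8 were kept under 12 of 12 alternative settings and in 30 of 30 refits that left out 1 unit. Without the 8 arrays of high GAPDH ratio, TLR2 (slope 1.23, limma adjusted p = 0.0562) and CD14 (0.54, limma adjusted p = 0.133) no longer passed. The CD14 call was also lost without NOMO-1 (limma adjusted p = 0.0643), and without NOMO-1 and GF-D8 together (limma adjusted p = 0.0593).

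**Figure D2:**
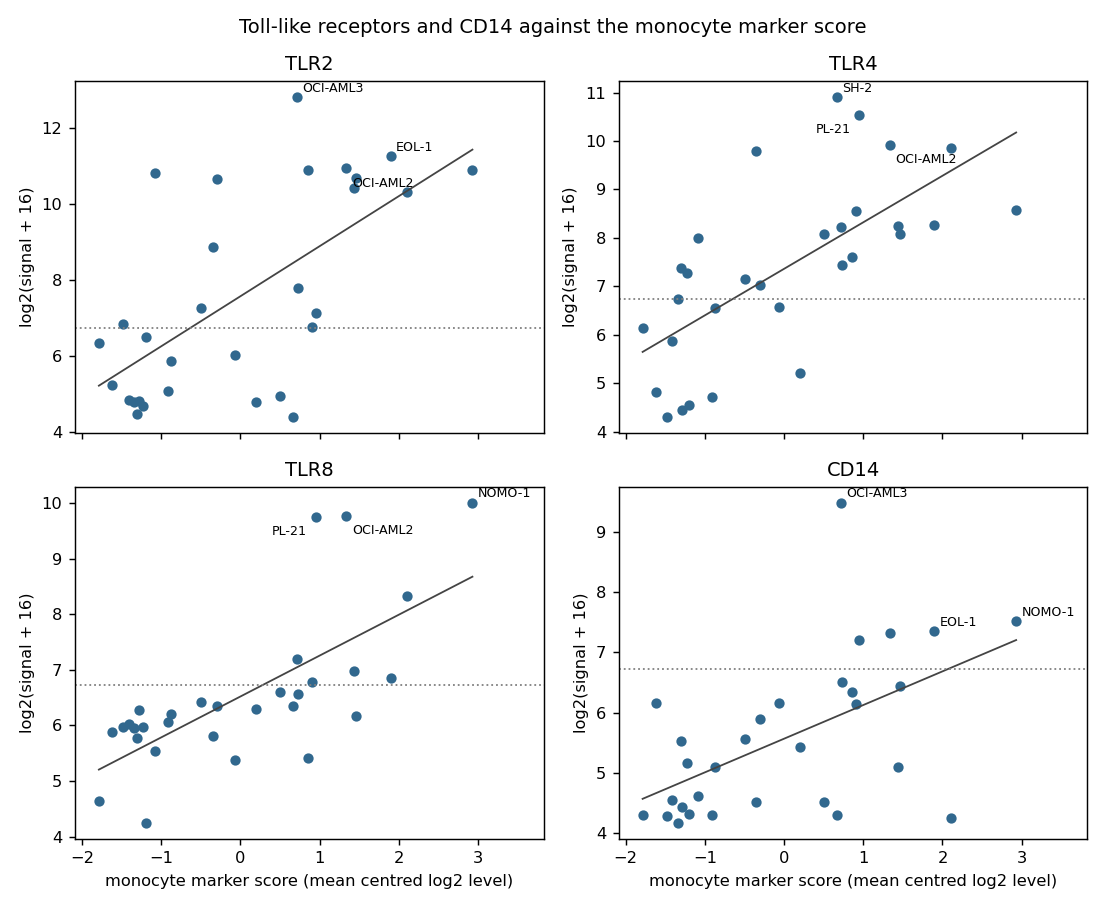
Each point is 1 of 30 units, with the monocyte marker score on the horizontal axis and the log2(signal + 16) level of TLR2, TLR4, TLR8 or CD14 on the vertical axis. The solid line is the fitted slope, the dotted line is 6.73 and the 3 highest units are named: slopes were 1.32, 0.96, 0.74 and 0.56.

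Genes of granulocyte precursors moved with the same receptors. Of the 14 tested granule markers, 6 rose with the monocyte score and none fell, ELANE and AZU1 among those that rose. The granule score ran from -3.30 in HNT-34 to 2.85 in SHI-1. TLR4 correlated with the granule score at r = 0.68 (rho 0.67), next to 0.68 (rho 0.77) with the monocyte score, TLR2 at 0.57 and 0.63, and TLR8 at 0.43 and 0.70. These correlations share the arrays, and the part of the granule programme in the slopes was not tested. SH-2, with the highest TLR4, had a granule score of 1.52 and a monocyte score of 0.66. Of the tested markers of B cells and of T and NK cells, 0 of 4 and 0 of 4 passed with the monocyte score. As 7.11% of all tested genes were called, lists this short say little. Some of these genes were high in single lines, with CD3D at 13.38 in FKH-1 and PAX5 at 9.41 in GF-D8. Of 13 tested megakaryocyte and 13 tested erythroid markers, 3 of each fell with the monocyte score and 0 rose. Of 6 tested dendritic cell markers 1 rose, FLT3 (slope 1.31), and 0 fell.

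Lists of related genes were read from the same fit, in which 7.11% of all tested genes were called and 4.42% were called higher. The list of leukocyte immunoglobulin-like and related receptors holds genes of the family of LILRB4 and others outside it, such as SIRPA. Of its 10 tested genes, 8 rose with the monocyte score, led by LILRA1 (slope 0.88), LILRA2 (1.18), SIRPA (1.27) and LILRA6 (0.66). Of 15 tested genes of Fc receptor and ITAM signalling, 7 rose, with PLCG2 (0.60), TREM1 (0.71), FGR (0.94) and PTPN6 (0.50) first. Of 12 cytosolic sensors, 5 rose, with the inflammasome adaptor PYCARD (0.76), NLRP3 (1.11), NOD2 (0.97) and NLRC4 (0.65) first. TLR5 (0.52) and TLR9 (0.56) were the 2 that rose among 5 other Toll-like receptors. Of 24 partners and signalling proteins of the Toll-like receptors, 3 rose: the RP105 complex genes CD180 (1.11) and LY86 (1.20), and the chaperone CNPY3 (0.26). CLEC12A (1.22) and CD209 (0.32) rose among 9 other C-type lectins. Of 10 other scavenger receptors 0 passed, as CD36 did not. Among 16 tested transcription factors, 5 rose and 4 fell, with IRF8 (1.52) and CEBPA (1.39) rising and TAL1 (-1.65) and GFI1B (-1.84) falling.

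Against a megakaryocyte marker score built from 13 genes, TLR2 and TLR4 fell, 2 of the 7 tested receptors, where 5.72% of all tested genes were called, 3.53% higher and 2.19% lower. With the same score 9 of 13 tested erythroid markers rose and 0 fell, and 5 of 14 granule and 3 of 14 monocyte markers fell and 0 rose. Their part in the receptors' slopes was not tested. TLR4 had a slope of -1.11 ± 0.251 (limma adjusted p = 0.00611) and kept its call under 12 of 12 alternatives. TLR2 had a slope of -1.44 ± 0.384 (limma adjusted p = 0.02), which did not pass without the arrays of high GAPDH ratio (-1.23, limma adjusted p = 0.105). TLR8 (-0.44 ± 0.224, limma adjusted p = 0.288) and CD14 (-0.38 ± 0.220, limma adjusted p = 0.381) did not pass, and CD36 had a slope of 0.36 ± 0.471 (limma adjusted p = 0.739). Of the 24 Toll-like receptor partners 3 also fell, the endosomal chaperone UNC93B1 (-0.76) with LY86 (-1.55) and CD180 (-1.16).

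**Figure D3:**
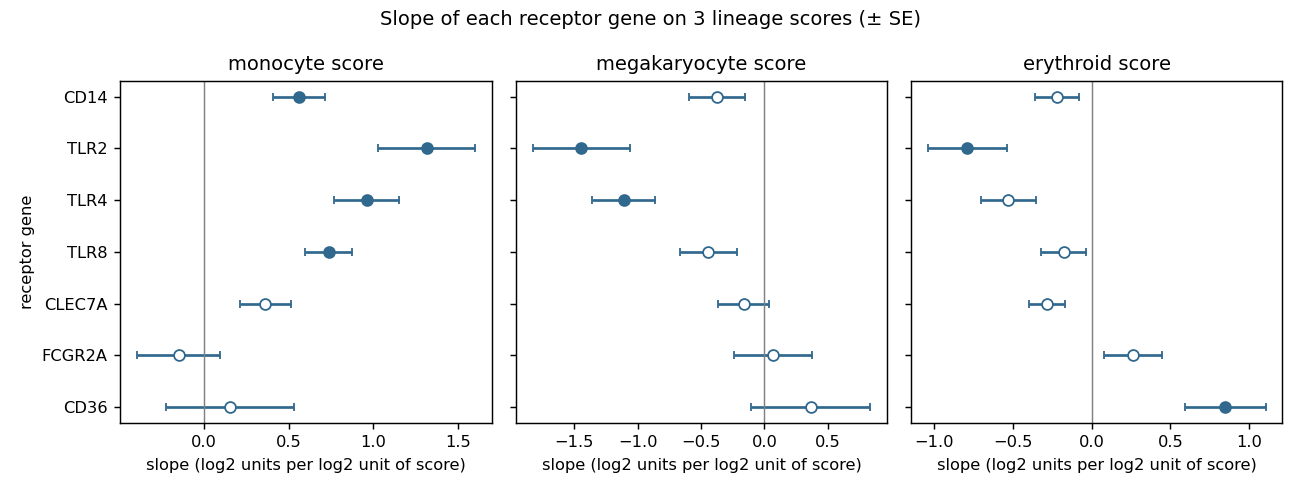
Points are the slopes of 7 tested receptor genes (vertical axis) on the monocyte, megakaryocyte and erythroid marker scores (horizontal axes, log2 units per unit of score, each panel with its own scale), and bars are ± 1 SE over 30 units. Filled points have an adjusted p below 0.05: 4 in the monocyte panel, 2 in the megakaryocyte panel and 2 in the erythroid panel.

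Against an erythroid marker score built from 13 genes, CD36 rose and TLR2 fell, 2 of the 7 tested receptors, where 9.24% of all tested genes were called, 5.59% higher and 3.65% lower. The CD36 slope was 0.85 ± 0.255 (limma adjusted p = 0.0291). Of 13 tested megakaryocyte markers 7 also rose with the erythroid score and 0 fell, while 6 of 14 granule and 5 of 14 monocyte markers fell and 0 rose. The part of these other markers in the receptors' slopes was not tested. The 6 units of highest erythroid score were SET2, HEL, OCI-M2, F-36P, MOLM-16 and OCI-M1, with scores between 2.46 and 3.57, while the next unit had 0.74. CD36 lay between 10.39 and 12.57 in 5 of them and at 4.61 in F-36P. The CD36 call therefore rests on few lines: it was lost on leaving out any of MOLM-16, OCI-M1, OCI-M2, HEL or SET2, with limma adjusted p up to 0.124, and with a constant of 1 in the log2 transform (0.82 ± 0.291, limma adjusted p = 0.076). Over the other 24 units CD36 correlated with the monocyte score at r = 0.60 (rho 0.72), against 0.07 (rho 0.24) over the 30. The lines of high CD36 and below-average erythroid score were OCI-AML3, MOLM-13, SHI-1, EOL-1, THP-1 and MV4-11, whose erythroid scores lay between -1.46 and -0.76 and whose monocyte scores lay between 0.71 and 1.90. This split was made after the values were seen and is a description.

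TLR2 had an erythroid slope of -0.79 ± 0.251 (limma adjusted p = 0.0416), which was lost under 6 of 12 alternatives and in 14 of 30 refits without 1 unit. TLR4 (-0.53 ± 0.175, limma adjusted p = 0.0515) did not pass, but did under 3 of 12 alternatives: without NOMO-1 and GF-D8 (limma adjusted p = 0.0475), with the GAPDH ratio as a covariate (0.0389) and without PLB-985 and KG-1A (0.0447). TLR4 also passed on leaving out any of F-36P, GDM-1, the KG-1 and KG-1A unit, OCI-M1, ME-1, NOMO-1, HNT-34 or HEL. CLEC7A had a slope of -0.28 ± 0.116 (limma adjusted p = 0.135), and passed under 4 of the 11 alternatives in which it was tested: without NOMO-1 and GF-D8 (limma adjusted p = 0.0377), without the arrays of high GAPDH ratio (0.0419), under median centring (0.0338) and, narrowly, under quantile normalization (0.04999). FCGR2A, whose highest level was in OCI-M1, among the 6 units of highest erythroid score, had a slope of 0.26 ± 0.186 (limma adjusted p = 0.472).

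**Figure D4:**
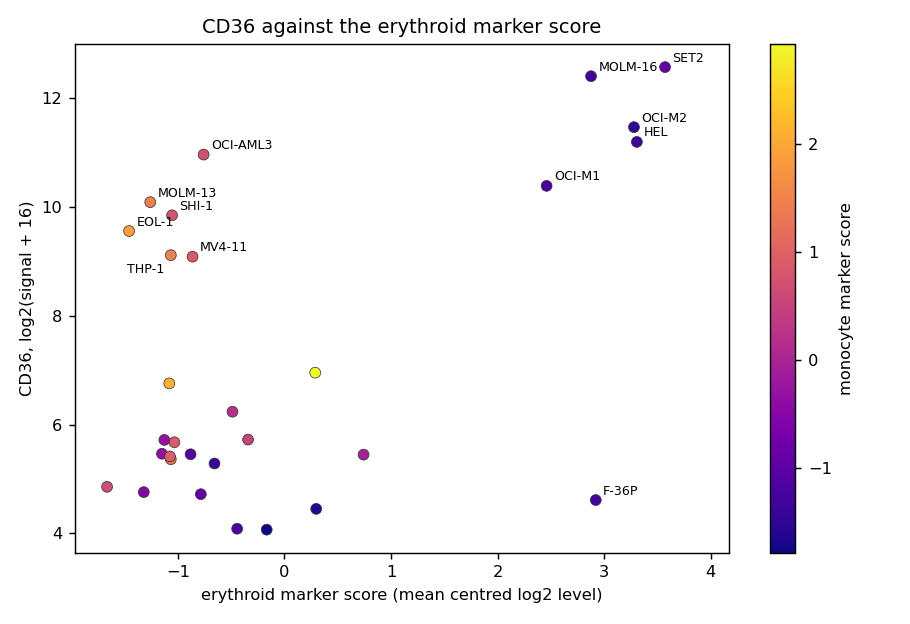
Each point is 1 of 30 units, with the erythroid marker score on the horizontal axis and the log2(signal + 16) level of CD36 on the vertical axis, coloured by the monocyte marker score. High CD36 occurs in 5 units at the right (10.39 to 12.57) and in 6 units at the left with monocyte scores of 0.71 to 1.90, and F-36P stands alone at the lower right at 4.61.

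The genes whose pattern over the 30 units was most like each receptor were listed by Pearson's r, as a description. For TLR4 they were MNDA (r = 0.82), a nuclear antigen of myeloid cells that is also 1 of the 14 monocyte score genes, SQOR (0.80), CSTA (0.79), ST3GAL6 (0.78) and the chemokine receptor CXCR2 (0.78). For CD14 they were TOX2 (0.81), SPOCK1 (0.75), ST3GAL3 (0.75), CAVIN3 (0.69) and NUP214 (0.69), of which 4 were highest in OCI-AML3, as CD14 was. For CD36 they were ACP3 (0.73), CBR1 (0.72), KEAP1 (0.70), APOC1 (0.70) and the beta-globin gene HBB (0.68). For TLR8 CRIP3 led at 0.79 (rho 0.57), for CLEC7A NALT1 at 0.71 and for CD163 OVGP1 at 0.77. After FCGR2C, FCGR2A was most like SDCBP at 0.79.

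For TLR2 the gene of most similar pattern was RNF175 (r = 0.90, rho 0.80), ahead of the channel gene MCOLN2 (0.85), CPM (0.79), IFI27L2 (0.79) and MS4A7 (0.79). RNF175, a ring finger protein gene, is the next protein-coding gene to TLR2 in the RefSeq gene table (GRCh38.p14), where the intervals of these genes overlap. RNF175 lay between 7.69 and 10.75 in the 11 units with TLR2 above 8, and between 4.41 and 7.53 in the other 19. THP-1 had the highest RNF175, followed by OCI-AML3 (10.39) and SKM-1 (10.35). SH-2, the unit with the lowest TLR2, had an RNF175 level of 7.09. The position was looked up after the correlation was seen. The next protein-coding gene on the other side, TMEM131L, correlated with TLR2 at 0.30, and the other tested neighbours among the 5 nearest on each side at no more than that. Among the 49 tested protein-coding neighbours of the 8 receptors, counted the same way, RNF175 was the 1 with r above 0.7. FCGR2C, which correlated with FCGR2A at r = 0.88, was not among the neighbours counted. TLR8 and the adjacent TMSB4X correlated at 0.50. Whether the TLR2 and RNF175 probe sets read a shared transcript was not tested.

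**Figure D5:**
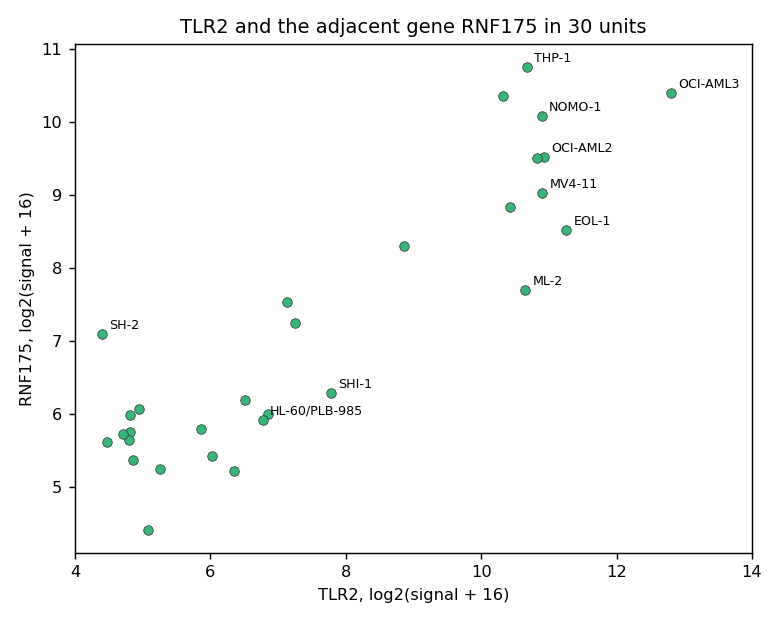
Each point is 1 of 30 units, with the log2(signal + 16) level of TLR2 on the horizontal axis and of its neighbour RNF175 on the vertical axis. The 11 units with TLR2 above 8 have RNF175 at 7.69 or higher, the other 19 at 7.53 or lower, and the correlation was 0.90.

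The last comparisons took up the PIM kinases, the targets of the study's inhibitors, and the growth medium. With the level of PIM1, 0 of the 7 tested receptors passed, where 0.00647% of all tested genes were called, and TLR2 alone had an unadjusted p below 0.05 (slope -0.45 ± 0.208, limma adjusted p = 0.668). With PIM2, again 0 passed, where 1.48% of tested genes were called. Here 3 had an unadjusted p below 0.05: FCGR2A (slope 1.08 ± 0.314, limma adjusted p = 0.066), CD36 (1.39 ± 0.511, limma adjusted p = 0.141) and TLR2 (-1.11 ± 0.513, limma adjusted p = 0.229). With mean probe sets the FCGR2A slope on PIM2 was 0.57 (limma adjusted p = 0.0672). FCGR2A passed for PIM2 under quantile normalization (1.23, limma adjusted p = 0.01), and FCGR2A and CD36 under median centring (limma adjusted p = 0.00335 and 0.0278). Median centring moved the split of PIM2 calls from 112 higher and 117 lower to 3532 higher and 559 lower, with the median slope of all genes moving from -0.04 to 0.15, so these calls depend on the scaling. With PIM3, 0 passed, where 0.569% of tested genes were called, 0.278% higher, and FCGR2A had the smallest p (slope -1.48 ± 0.485, limma adjusted p = 0.106). It passed for PIM3 under quantile normalization and without PLB-985 and KG-1A (limma adjusted p = 0.0371 and 0.0193). The slope shrank most, with no call, under 6 other settings: to -0.85 without HL-60 and KG-1, -0.87 with 32 separate lines, -0.61 with mean probe sets, -0.59 with the GAPDH ratio as a covariate, -0.49 without the arrays of high ratio and -0.41 under median centring. The limma adjusted p with the covariate was 0.9995, and FCGR2A was the receptor with the strongest correlation with that ratio. Median centring turned 43 higher and 45 lower PIM3 calls into 45 higher and 1 lower.

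Between the 4 lines grown with an added cytokine and the 23 units with none named, 0 of the 7 tested receptors differed, where 0% of all tested genes were called by limma and 878 had an unadjusted p below 0.05. FCGR2A was the 1 receptor among those 878. FCGR2A was 12.19 in F-36P, 11.58 in OCI-AML5, 10.54 in OCI-AML2 and 10.40 in OCI-AML3. In the 23 units it lay between 5.38 and 12.75 with a median of 9.10, so the 4 lines lay inside that range and above its median. The means were 11.18 ± 0.853 (SD, n = 4) and 8.99 ± 1.81 (SD, n = 23), a difference of 2.19 ± 0.879 (SE, limma adjusted p = 0.864). With the mean over all its probe sets the difference was 1.13 (limma adjusted p = 0.789). TLR4 was 9.92 in OCI-AML2, 9.79 in OCI-AML5, 8.23 in OCI-AML3 and 7.38 in F-36P, and differed by 1.65 ± 0.910 (limma adjusted p = 0.891). CD14 was 9.49 in OCI-AML3, 7.32 in OCI-AML2, 5.53 in F-36P and 4.52 in OCI-AML5, which spans nearly the whole range of the panel. TLR2 likewise ran from 4.47 in F-36P to 12.81 in OCI-AML3. The media and cytokines differed within the 4 lines, and the lines' own identity and the medium cannot be told apart.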

How the data were processed

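The authors deposited linear intensity values, 1 per probe set and array. Per the submitters' processing notes the authors used Affymetrix Expression Console, and the version and summarization method are not given in the sources used here. On each array the 2% trimmed mean was about 500.1. Intensities were taken as log2(signal + 16), with no further scaling, since the deposited arrays were already scaled alike.

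Of 54675 probe sets, 41091 carried 1 symbol in the annotation used, 1801 several, 11721 were not listed and 62 were controls. The probe set of highest mean stood for each of 19775 genes. A gene was tested if it exceeded 6.73 in at least 3 of 30 units (15455 genes). A doubtful KG1 entry among the growth conditions was taken to mean KG-1A.

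Slopes on PIM1, PIM2, PIM3 and 3 marker scores, and the medium contrast, came from limma 3.58.1 in R 4.3.3 (lmFit, eBayes with a trend), two-sided, adjusted by Benjamini and Hochberg's method at 0.05. A gene in a score was left out of that score's fit. Scripts were tested on simulated data, and plots used matplotlib 3.10.9.

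The receptors and the 16 gene lists were chosen with earlier results of these data known. Genes named were the receptors, the 5 genes of highest r to each, and up to 4 passing genes per list and comparison, of smallest p. Alternatives covered the constant, scaling, filter, probe set choice, array quality, sublines and each unit left out.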

Additional observations from a re-analysis of the deposited data

Results flagged for a closer look

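Among the 4 lines grown with an added cytokine, CD36 in OCI-AML3 (10.965) stood far from the other 3, which lay between 4.61 and 5.47. The gap was 0.866 of the group's range, above Dixon's critical value for 4 samples. In the same lines CLEC7A in F-36P (5.23) stood below the other 3, at 6.27 to 6.47, with a gap of 0.84 of the range. Chance gives such a result in about 1 in 20 groups, and 8 receptors were looked at.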

How the results depend on the processing

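Each result was recomputed under 12 alternatives, of which leaving out PLB-985 and KG-1A, or HL-60 and KG-1, was chosen after seeing the data. CLEC7A was not tested under every alternative. No direction of a called receptor reversed. Of 485 values of receptors that did not pass, 12 passed under some alternative, with refits that left out a single unit not counted. TLR4 and TLR8 with the monocyte score and TLR4 with the megakaryocyte score kept their calls under all 12. No paired analysis was possible because no line was measured more than once or under different conditions.

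Receptors called changed as follows. For the monocyte score, 4 became 2 (TLR4 and TLR8) without the arrays of high GAPDH ratio. For the megakaryocyte score, 2 became 1 (TLR4) without them. For the erythroid score, 2 became 1 with a constant of 1 (TLR2), with 32 separate lines (CD36) and without HL-60 and KG-1 (CD36). It became 4 without NOMO-1 and GF-D8 and 3 without PLB-985 and KG-1A (TLR4 added). It stayed 2, with CLEC7A in place of TLR2, under quantile normalization, median centring and without the high GAPDH arrays, and with TLR4 in place of TLR2 with the covariate. For PIM2, 0 became 1 under quantile normalization and 2 under median centring. For PIM3, 0 became 1 under quantile normalization and without PLB-985 and KG-1A. Leaving out 1 unit gave 3 to 4 for the monocyte score, 2 to 2 for the megakaryocyte score, 0 (without MOLM-16 or without SET2) to 3 for the erythroid score, 0 to 1 for PIM3 and 0 to 0 for PIM1, PIM2 and the medium.

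Genes called for PIM1, 1 in all, became 3 with a constant of 1 or quantile normalization, and 2 under median centring, mean probe sets, without NOMO-1 and GF-D8, without the high GAPDH arrays, with 32 separate lines and without PLB-985 and KG-1A. For PIM2, 229 became 1737 under quantile normalization, 4091 under median centring, 123 without the high GAPDH arrays, 16 with the ratio as a covariate and 84 without PLB-985 and KG-1A. For PIM3, 88 became 1056 under quantile normalization, 46 under median centring, 22 with no filter, 32 with mean probe sets, 31 without NOMO-1 and GF-D8, 0 without the high GAPDH arrays or with the covariate, 540 with 32 separate lines, 573 without PLB-985 and KG-1A and 16 without HL-60 and KG-1. For the monocyte score, 1098 became 661 under median centring, 713 without the high GAPDH arrays and 701 with the covariate. For the medium, 0 became 4 without the high GAPDH arrays. Leaving out 1 unit gave 1 to 3 genes for PIM1, 0 (without OCI-M1) to 404 (without KMOE-2) for PIM2, 3 (without NB-4) to 418 (without NOMO-1) for PIM3, 838 to 1591 for the monocyte, 637 to 1007 for the megakaryocyte and 1066 to 1608 for the erythroid score, and 0 to 1 for the medium. The cause of these changes was not tested. With 1 array per line the number of arrays limits the precision, and dim values depend on the constant: the range of CD14 was 5.32 with 16, 7.87 with 1 and 3.54 with 64.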

Other observations

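FCGR2A ran against CLEC7A over the 30 units (r = -0.46, rho -0.41). The correlation was -0.30 over the 28 units without NOMO-1 and GF-D8 and -0.20 over the 22 units of low GAPDH ratio. FCGR2A also ran against the B cell marker score, at r = -0.64 (rho -0.51) over the 30 units, -0.48 without NOMO-1 and GF-D8 and -0.57 over the 22 units of low ratio. The correlation of TLR4 with TLR8 was 0.59 over the 30 units, 0.61 over the 28 and 0.62 over the 22. That of TLR2 with RNF175 was 0.89 over the 28 units. These values are descriptions, and every pair shares its arrays.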
